A study of Homo sapiens with 4 samples.

Results

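FYB1, also known as ADAP, is a cytosolic adaptor protein of T cells and other blood cells, and the transcripts described here are those of FYB1 and of proteins that bind it or sit beside it in 1 signalling complex. The 10 genes were chosen by name from known protein partners: FYB1 itself, the adaptors SKAP1, SKAP2, LCP2, GRAP2 and NCK1, the kinase FYN, and the actin regulators EVL, VASP and DBNL. Of these, 9 were found by Ensembl identifier among the 28274 genes of the table, and SKAP2 was not analysed here. RNA sequencing of the human cell line named J-gammal in the labels covered 2 libraries with FYB1 knockdown, titled sh-FYB1, and 2 control libraries, titled NC, labelled as having no treatment and the genotype none. The labels do not say whether the controls carried a control construct, whether both knockdown libraries carry the same hairpin, or whether replicate libraries stem from separate cultures. The p-values therefore reflect variation among 4 libraries that may be partly technical.

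When the T cell receptor is engaged, kinases of the Src and Syk families phosphorylate the adaptors LAT and LCP2, and LCP2 (SLP-76) gathers a complex at the membrane. FYB1 joins this complex through phosphotyrosines that the SH2 domain of LCP2 binds, and it carries SKAP1 with it. The pair is known for raising the affinity of leukocyte integrins from inside the cell, and proline-rich stretches of FYB1 bind proteins that lengthen actin filaments. SKAP1 protein is known to be unstable where FYB1 is missing, a step that RNA abundance cannot show.

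The 4 libraries held between 16693113 and 20251864 recovered reads. Levels are in FPKM, here reads per kilobase of merged exon scaled to the authors' library total, and 13172 genes with means of 1 FPKM or more were tested. All 8 T cell markers examined passed that filter. Limma-voom called 1 of them, CD3D, lower, beside 5.8% of all genes tested, and limma-trend called 0. CD3D, a subunit of the receptor complex, stood at 224 and 299 FPKM in knockdown libraries and at 478 and 419 FPKM in controls (log2 difference -0.79, adjusted p = 0.0200 by limma-voom and 0.141 by limma-trend). TRAC, the constant region of the receptor alpha chain, was at 405.6 and 459 FPKM in knockdown libraries and 399.6 and 373 FPKM in controls. The summed level of the 8 markers was 1046 and 1284 FPKM in knockdown libraries and 1425 and 1318 FPKM in controls, with 5 of 8 lower and 2 of 8 higher without overlap (34.6% and 26% of all genes tested), and the part of this in the differences of the members was not tested. The summed level of 6 myeloid markers was 0.308 to 0.463 FPKM in knockdown libraries and 0.466 to 0.495 FPKM in controls, and that of 4 NK cell markers 0.276 to 0.340 and 0.325 to 0.477 FPKM in the same order. Among B cell markers, MS4A1, CD79B and PAX5 were under 1 FPKM in all libraries, while CD79A stood at 11.1 and 15.8 FPKM in knockdown libraries and at 24.5 and 21.2 FPKM in controls (log2 difference -0.78, adjusted p = 0.0297 by limma-voom, and 0.131 by limma-trend). The 4 epithelial and stromal markers in the table summed to 1.04 to 1.26 FPKM in knockdown libraries and 0.619 to 0.790 FPKM in controls. In RNA from whole cultures, fewer cells with a transcript and less of it per cell cannot be told apart.

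Several of these genes belong to families of similar sequence, so the coding sequences of some relatives were compared for identical stretches. The longest identical coding stretch was 23 bases for FYN with YES1 and 21 bases for NCK1 with NCK2 (GENCODE 29 transcripts, sense strand, 5′ to 3′). For FYB1 with its relative PRAM1 it was 11 bases, and for EVL with VASP 16 bases. The stretches are shown because they mark how long a read within coding sequence could be and still fit both genes without a mismatch. Longer reads can fit both genes where a few differing bases are allowed, and this was not examined. Untranslated parts were not compared, nor was FYN with the kinase LCK. The run shown is 1 of 2 of that length for FYN with YES1 and 1 of 3 for FYB1 with PRAM1.
FYN and YES1: aaacttgacaatggtggatacta
NCK1 and NCK2: tgtctactgcattgggcagcg
FYB1 and PRAM1: ccaagcccccg

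FYB1 was the member that differed between the groups. Its gene lies on the minus strand of chromosome 5 (39105255 to 39274528, hg38). The values were 6.18 and 4.53 FPKM in knockdown libraries 1 and 2, against 17.6 and 20.1 FPKM in controls 1 and 2. They rest on 1009 and 821 reads in the knockdown libraries and on 2591 and 2981 reads in the controls. Both knockdown libraries lay below both controls, and the amount left was 32.9% of the control mean in knockdown library 1 and 24.1% in knockdown library 2. FYB1 averaged 5.36 ± 1.17 FPKM in knockdown libraries and 18.8 ± 1.75 FPKM in controls (SD, n = 2 each).

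The fall of FYB1 was -1.65 ± 0.15 (SE) on the log2(FPKM + 1) scale, with a 95% interval of -2.03 to -1.27 and an adjusted p of 0.0398 by limma-trend. No gene had a smaller adjusted p by limma-trend, and others such as RPN2 shared this value. By unadjusted p FYB1 ranked 20 in that test. On recovered reads limma-voom gave -1.83, with an interval of -2.17 to -1.49 and an adjusted p of 0.000419. Among the 13172 genes tested FYB1 had the 11th largest fall by limma-trend, and the 4th largest among the 18 that passed the threshold. By limma-voom it was the 33rd largest, and the 7th among the 764 called lower. The limma-trend call was lost without knockdown library 1 and without knockdown library 2, with values of -1.84 and -1.46. It was kept without control 1 and without control 2, with values of -1.74 and -1.56. Each of these fits leaves 1 library in a group. The knockdown libraries themselves differed in FYB1 by -0.45 on the log2 scale (library 2 minus library 1), where counting of reads alone gives a standard error of 0.068.

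**Figure D1:**
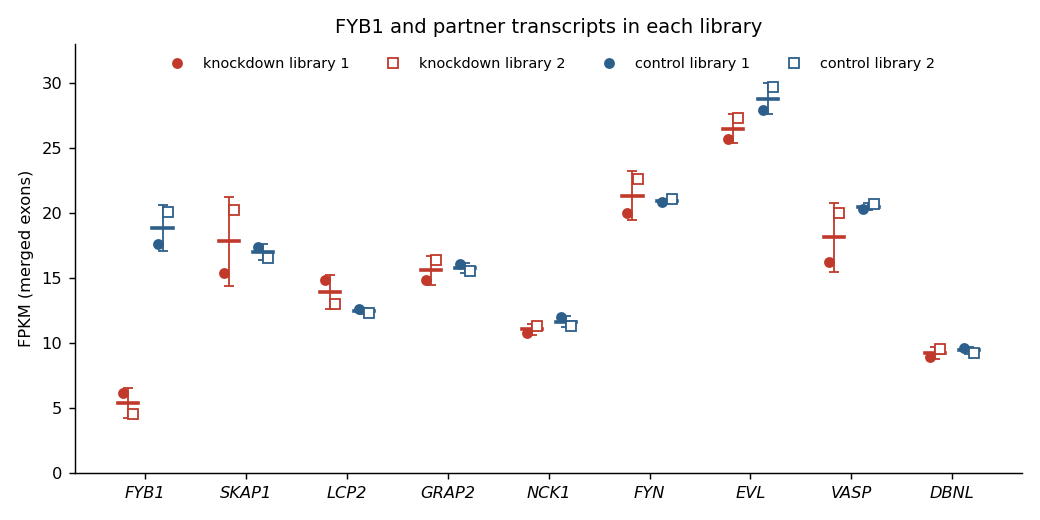
FPKM of FYB1 and its 8 partners in each library (vertical axis from 0; red, knockdown; blue, control; filled circles, library 1; open squares, library 2; bars, mean; whiskers, SD, n = 2). FYB1 is at 6.18 and 4.53 FPKM in knockdown libraries and at 17.6 and 20.1 FPKM in controls, and the partners lie between 8.88 and 29.7 FPKM in all libraries.

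None of the 8 partners passed the threshold in either test (limma-trend or limma-voom), and 0 reached 0.05 before adjustment in either, beside 23.4% of all genes tested by limma-trend and 28.4% by limma-voom. By limma-trend 1 of the 9 members was called, FYB1, where 0.205% of all genes tested were called (0.137% lower, 0.0683% higher). By limma-voom it was again FYB1 alone, beside 7.74% of all genes (5.8% lower and 1.94% higher). The median log2 difference of the partners was -0.024, and that of all genes tested was -0.032. The 95% intervals of the partners reached from -0.49 for VASP to 0.42 for SKAP1 by limma-trend, and on recovered reads from 0.719 to 1.35 times the control level. For each partner, changes within its own interval cannot be told from no change with 2 libraries per group. No partner was called under any of the 14 alternatives, of which 3 called no gene at all.

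**Figure D2:**
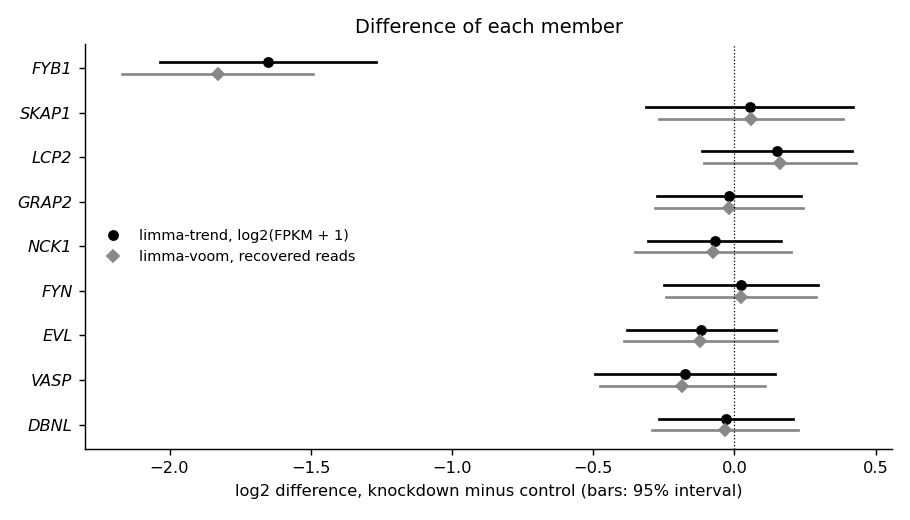
Log2 difference of each member, knockdown minus control (horizontal axis), by limma-trend on log2(FPKM + 1) (black circles) and limma-voom on recovered reads (grey diamonds), with 95% intervals. The intervals of FYB1, -2.03 to -1.27 and -2.17 to -1.49, lie apart from those of the 8 partners, which all include 0.

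Among the adaptors, SKAP1 is the constitutive partner of FYB1, bound through its SH3 domain (chromosome 17, 48133440 to 48430275, minus strand). It stood at 15.4 and 20.2 FPKM in knockdown libraries, against 17.4 and 16.5 FPKM in controls, so the control values lay between those of the knockdown libraries. The difference was 0.05 ± 0.15 (95% interval -0.31 to 0.42, adjusted p = 0.835 by limma-trend). SKAP1 varied more between the knockdown libraries than any other partner, by 0.40 on the log2 scale with a counting error of 0.068. Between the controls it differed by -0.074, with a counting error of 0.074. Leaving out knockdown library 2 turned the sign (-0.13), and removing the trend on exon length gave 0.22, with neither value past the threshold.

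LCP2 is the scaffold that ties FYB1 to the T cell receptor (chromosome 5, 170246237 to 170298227, minus strand). Its values were 14.9 and 13.03 FPKM in knockdown libraries and 12.6 and 12.3 FPKM in controls. Both knockdown libraries were above both controls, the only such case among the 8 partners, while 26% of all genes tested were higher without overlap. The difference was 0.15 ± 0.11 (interval -0.11 to 0.41, adjusted p = 0.411 by limma-trend). GRAP2, or GADS, bridges LAT and LCP2 (chromosome 22, 39901082 to 39973721, plus strand). It stood at 14.8 and 16.4 FPKM in knockdown libraries and at 16.0 and 15.5 FPKM in controls, which overlap, with a difference of -0.018 ± 0.10 (interval -0.27 to 0.24).

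NCK1 is an adaptor of SH2 and SH3 domains that brings regulators of actin to LCP2 and FYB1 (chromosome 3, 136862208 to 136949823, plus strand). It had 10.8 and 11.3 FPKM in knockdown libraries and 11.96 and 11.3 FPKM in controls. The groups met at their edges, and the difference was -0.070 ± 0.095 (interval -0.31 to 0.17, adjusted p = 0.659 by limma-trend). With 709 to 865 reads it was also among the members with the fewest reads, beside SKAP1 with 735 to 1097.

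FYN, a Src family kinase, phosphorylates FYB1 and binds it through its SH2 domain (chromosome 6, 111660332 to 111873452, minus strand). It stood at 19.97 and 22.6 FPKM in knockdown libraries, against 20.8 and 21.0 FPKM in controls. The control values again lay between the knockdown values, and the difference was 0.022 ± 0.11 (interval -0.25 to 0.29, adjusted p = 0.912 by limma-trend).

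Of the actin regulators, EVL and VASP belong to the Ena/VASP family, whose EVH1 domain binds proline-rich motifs such as those of FYB1. EVL was the most abundant member (chromosome 14, 99971449 to 100144236, plus strand), with 25.7 and 27.3 FPKM in knockdown libraries and 27.9 and 29.7 FPKM in controls. VASP (chromosome 19, 45506579 to 45526983, plus strand) had 16.2 and 20.01 FPKM in knockdown libraries and 20.3 and 20.7 FPKM in controls. For both genes the knockdown values were below the control values, with a small gap for EVL and VASP knockdown library 2 close to the controls. The differences were -0.12 ± 0.11 for EVL and -0.18 ± 0.13 for VASP (adjusted p = 0.510 and 0.425 by limma-trend). The VASP value depended on which knockdown library was used, at -0.032 when the first was left out and -0.32 when the second was. Counting FYB1 and LCP2, 4 of the 9 members had groups that did not overlap, beside 60.6% of all genes tested. Of these 4, FYB1, EVL and VASP were lower, and 34.6% of all genes were lower without overlap. Quantile normalization and the sum of reads as library total put EVL above 0 (0.078 and 0.016), and these left VASP below 0. DBNL, an actin-binding adaptor with an SH3 domain (chromosome 7, 44044640 to 44069456, plus strand), had 8.88 and 9.57 FPKM in knockdown libraries and 9.62 and 9.24 FPKM in controls, with overlap. Its difference was -0.029 ± 0.095 (interval -0.27 to 0.21).

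The partners shared a lean between the 2 knockdown libraries. In 7 of 8 partners, all but LCP2, knockdown library 2 was above knockdown library 1, and the median of this difference over all 8 was 0.12 on the log2(FPKM + 1) scale. The same held for 58% of all genes tested, with a median of 0.053. FYB1 went the other way, lower in library 2. Between the controls, 3 of 8 partners were higher in library 2. The ratio of recovered reads to the authors' total was 0.905 and 0.989 in knockdown libraries 1 and 2 and 1.06 and 1.03 in the controls. The part of this scaling in the differences between knockdown libraries was not tested.

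The order of the levels changed at FYB1. In both knockdown libraries FYB1 ranked 9 of 9 members in FPKM, and in both controls it ranked 4. The knockdown order by mean was EVL, FYN, VASP, SKAP1, GRAP2, LCP2, NCK1, DBNL and FYB1. Neighbours from FYN to LCP2 in that order overlapped in their library values, while EVL, NCK1, DBNL and FYB1 stood apart from theirs. In the controls the order was EVL, FYN, VASP, FYB1, SKAP1, GRAP2, LCP2, NCK1 and DBNL, with no overlap between neighbours, although FYN and VASP were only 20.9 and 20.5 FPKM on average. FYB1 amounted to 4.88% and 3.22% of the summed FPKM of its 8 partners in knockdown libraries, against 12.9% and 14.7% in controls. That sum was 126.6 and 140.5 FPKM in knockdown libraries and 136.7 and 136.3 FPKM in controls.

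Within each library, with merged exon length, FYB1 was below the level of all 8 partners in both knockdown libraries. In both controls it was above SKAP1, LCP2, GRAP2, NCK1 and DBNL on that length. The ratio of FYB1 to SKAP1, its bound partner, was 0.402 and 0.224 in knockdown libraries, against 1.01 and 1.21 in controls. To LCP2 it was 0.416 and 0.348 in knockdown libraries, against 1.39 and 1.63 in controls. Over all partners the ratio ran from 0.166 to 0.696 in the knockdown libraries and from 0.629 to 2.17 in the controls. The ratios of a library share the same FYB1 value, so they restate its fall and are not repeated observations. Their size depends on the exon length used. They are ratios of RNA and do not give the proportion of the proteins.

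**Figure D3:**
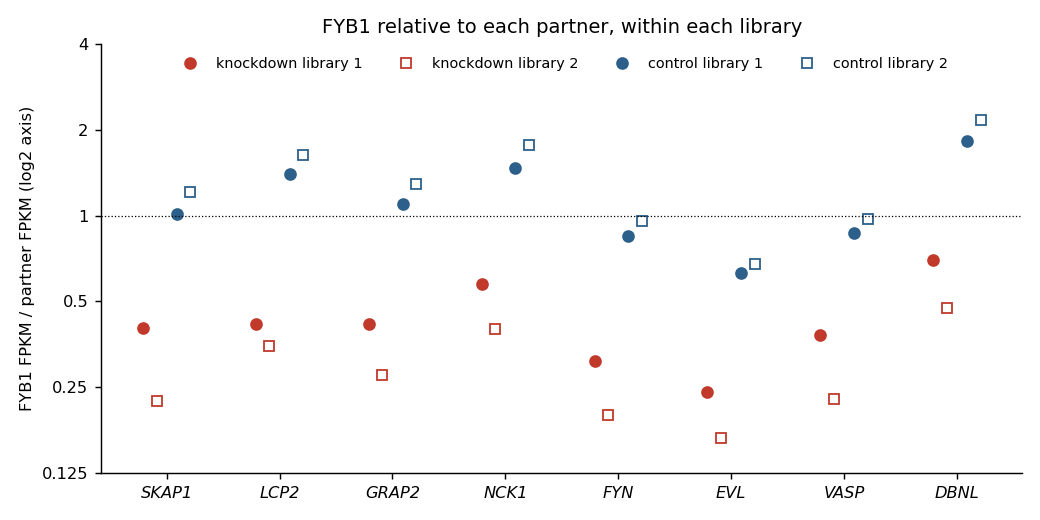
Ratio of FYB1 FPKM to the FPKM of each partner within each library (vertical axis, log2 scale; red, knockdown; blue, control; filled circles, library 1; open squares, library 2; dotted line, equal levels). For each partner both knockdown ratios lie below both control ratios, and all 16 knockdown ratios are under 1. The ratios of a library share the same FYB1 value and are not independent.

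The levels depend on the length by which reads are divided. Merged exons count every annotated isoform, and for DBNL they span 12587 bases where its longest principal transcript has 2117, and for EVL 10621 where that has 1978. Per kilobase of that transcript, an alternative chosen after the data were seen, DBNL ranked 2 of 9 in both groups, with means of 54.9 in knockdown libraries and 56.1 in controls. EVL stayed first, with 142 and 155 in the same order. FYB1 still ranked 9 in the knockdown libraries and 4 in the controls, at 10.02 and 35.2, but its neighbours in the controls changed. In controls 1 and 2 DBNL was then above FYB1 (57.2 and 54.9 against 32.9 and 37.5), and VASP was below it (31.7 and 32.3). Differences between groups within a gene are the same on either length before a pseudocount is added.

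Exon length was also correlated with the differences, and the cause of this was not tested. Across the 13172 genes tested the log2 difference had a Spearman correlation of 0.22 with merged exon length, given as a description because genes are not independent and share the 4 libraries. Removing the smooth trend moved FYB1 to -1.72 (adjusted p = 0.0418 by limma-trend), DBNL to -0.17, EVL to -0.23 and VASP to -0.058. Overlapping annotation touches 4 members. PGAM2 lies opposite 6.81% of the merged exons of DBNL, and DEGS2, with 55 and 64 reads in knockdown libraries and 64 and 77 reads in controls, lies opposite 2.64% of those of EVL. AC017116.1 lies on the same strand as DBNL, over 5.62% of its merged exons. For LCP2 and NCK1 the longest overlaps were 1.70%, on the opposite strand, and 1.77%, on the same strand. Without a stated use of strand, reads in opposite-strand overlaps cannot be assigned with certainty. Strand would not separate reads in same-strand overlaps.

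Around the adaptor complex, 28 further genes of receptor signalling, integrin activation and the NF-kappaB branch were listed, and all 28 passed the filter. Limma-trend called 0 of them, with 5 at an unadjusted p under 0.05 (23.4% of all genes tested were), and limma-voom called 1, PTPN22, higher (1.94% of all genes were called higher). These shares are no result about the list. Their median log2 difference was 0.033, beside -0.032 for all genes, and 17 of 28 were above 0, as were 45.7% of all genes. PTPN22, a phosphatase that restrains Src family and ZAP70 kinases, had 7.94 and 7.005 FPKM in knockdown libraries, against 5.002 and 5.41 FPKM in controls. The groups did not overlap, as in 60.6% of all genes tested. Its difference was 0.45 (adjusted p = 0.128) by limma-trend and 0.52 (adjusted p = 0.0483) by limma-voom.

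LAT, the membrane scaffold to which GRAP2 links LCP2, was present at low levels. It had 1.64 and 1.499 FPKM in knockdown libraries, against 0.881 and 0.914 FPKM in controls, from 134 and 136 reads in knockdown libraries and 65 and 68 reads in controls. It passed the filter only through the knockdown libraries, so its values are a description, and the 5 genes counted before adjustment include it. ITGB2, the beta chain of leukocyte integrins such as LFA-1, had 23.1 and 25.9 FPKM in knockdown libraries and 30.9 and 31.3 FPKM in controls (log2 difference -0.33, adjusted p = 0.168 by limma-trend). STK4, a kinase of the Hippo pathway that acts in lymphocyte adhesion, had 19.2 and 16.5 FPKM in knockdown libraries, against 14.9 and 13.8 FPKM in controls. CBL, a ubiquitin ligase for receptor-proximal kinases, had 20.7 and 17.1 FPKM against 14.3 and 16.3 FPKM in the same order. The groups of ITGB2, STK4 and CBL did not overlap, as in 60.6% of all genes tested, and no call was made for them by either test.

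Among the most abundant genes of the list, the groups of LCK and KHDRBS1 overlapped and those of ZAP70 did not. LCK, the kinase that starts receptor signalling, averaged 260.1 ± 44.2 FPKM in knockdown libraries and 272 ± 5.17 FPKM in controls (SD, n = 2 each). ZAP70, which phosphorylates LCP2, averaged 60.4 ± 8.70 and 67.3 ± 0.42 FPKM, and KHDRBS1, an RNA-binding protein bound by Src kinases, 82.4 ± 1.36 and 82.2 ± 0.51 FPKM in the same order. ZAP70 was at 54.2 and 66.5 FPKM in knockdown libraries and 67.0 and 67.6 FPKM in controls (log2 difference -0.16, adjusted p = 0.501 by limma-trend). Of all genes tested, 34.6% were lower without overlap. The spread of LCK and ZAP70 between the knockdown libraries exceeded the difference between the group means.

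The closest relatives of the members were read for the same comparison. Of 17 listed, FYB2 was not analysed here, 10 passed the filter, and genes with means under 1 FPKM included PRAM1, BLNK, CLNK, LYN and FGR. PRAM1, the relative of FYB1, had 0.432 and 0.324 FPKM in knockdown libraries and 0.255 and 0.332 FPKM in controls, from 16 to 30 reads. BLNK, the LCP2 relative of B cells, had at most 3 reads in a library. Limma-trend called 0 of the 10, with 3 at an unadjusted p under 0.05, beside 23.4% of all genes tested. Limma-voom called 1 of the 10, CTTN, higher, beside 1.94% of all genes.

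CTTN, or cortactin, an actin-branching cofactor that shares with DBNL an SH3 domain, had 2.61 and 2.58 FPKM in knockdown libraries, against 1.71 and 1.43 FPKM in controls. Its difference was 0.49 (adjusted p = 0.146) by limma-trend and 0.73 (adjusted p = 0.0304) by limma-voom. GRB2, the widely expressed relative of GRAP2, had 46.4 and 50.7 FPKM in knockdown libraries, against 65.2 and 61.3 FPKM in controls. Its difference was -0.37 (interval -0.67 to -0.077, adjusted p = 0.162 by limma-trend). YES1, a Src family kinase like FYN, had 7.98 and 6.87 FPKM in knockdown libraries, against 5.74 and 5.27 FPKM in controls (difference 0.37, adjusted p = 0.153 by limma-trend). DBN1, or drebrin, had means of 63.7 ± 7.52 FPKM in knockdown libraries and 77.5 ± 0.62 FPKM in controls, with an interval that includes 0.

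ENAH, the remaining member of the Ena/VASP family, had 2.69 and 2.26 FPKM in knockdown libraries and 2.06 and 2.05 FPKM in controls. Its groups did not overlap, as in 60.6% of all genes tested (difference 0.18, interval -0.14 to 0.51). The groups of HCLS1, NCK2 and SRC overlapped. HCLS1, the blood cell relative of cortactin, averaged 40.9 ± 3.35 and 40.5 ± 0.90 FPKM in the same order. NCK2, which can stand in for NCK1, averaged 25.1 ± 3.91 FPKM in knockdown libraries and 24.6 ± 2.15 FPKM in controls, and SRC 6.63 ± 1.05 and 7.13 ± 0.14 FPKM. In both groups NCK2 was above NCK1 in FPKM on merged exon length. Levels per longest principal transcript were not computed for NCK2.

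**Figure D4:**
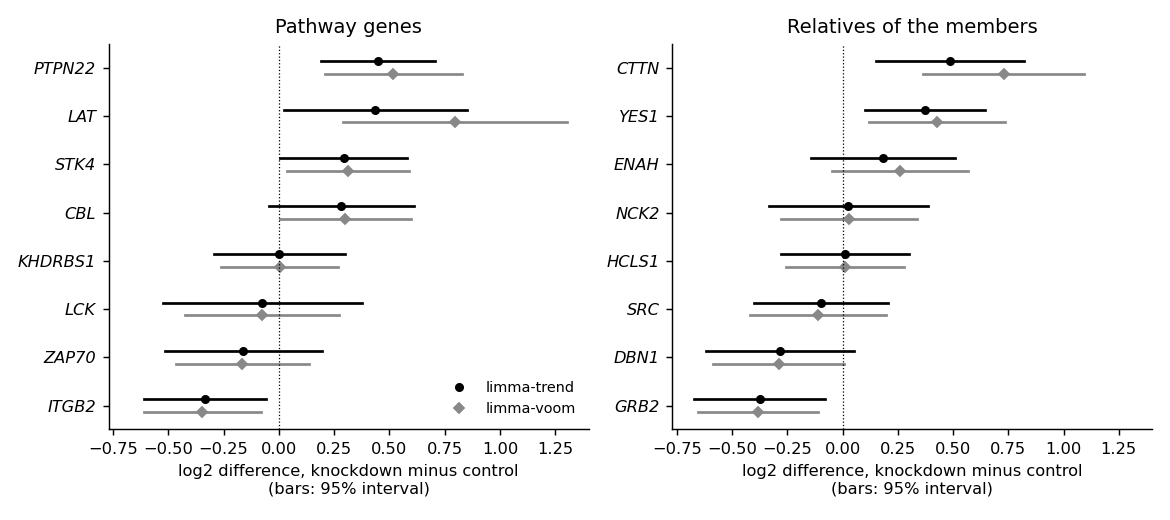
Log2 difference, knockdown minus control (horizontal axis), of 8 pathway genes and 8 relatives of the members, by limma-trend (black circles) and limma-voom (grey diamonds), with 95% intervals. PTPN22 and CTTN are the 2 genes called by limma-voom, at 0.52 and 0.73, and limma-trend calls none of the 16.

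The coding genes most like FYB1 over the 4 libraries were RPN2, GAGE2A, BPNT1, PRKAR2A and DACT3. Likeness was the distance between log2(FPKM + 1) values centred on each gene's mean, over 7201 coding genes, and ran from 0.47 for RPN2 to 0.58 for DACT3. With 2 groups of 2 libraries it mostly reflects the size of the difference between groups. RPN2, a subunit of the oligosaccharyltransferase, had 30.0 and 33.3 FPKM in knockdown libraries and 85.6 and 84.3 FPKM in controls. DACT3, a regulator of Wnt signalling, had 2.29 and 3.01 FPKM in knockdown libraries and 7.63 and 8.31 FPKM in controls. Knockdown library 2 was the lower of the pair for FYB1 and for PRKAR2A, which regulates protein kinase A (3.58 and 3.51 FPKM), and the higher for the other 4 genes. GAGE2A reads are uncertain, because genes of that family are nearly identical.

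**Figure D5:**
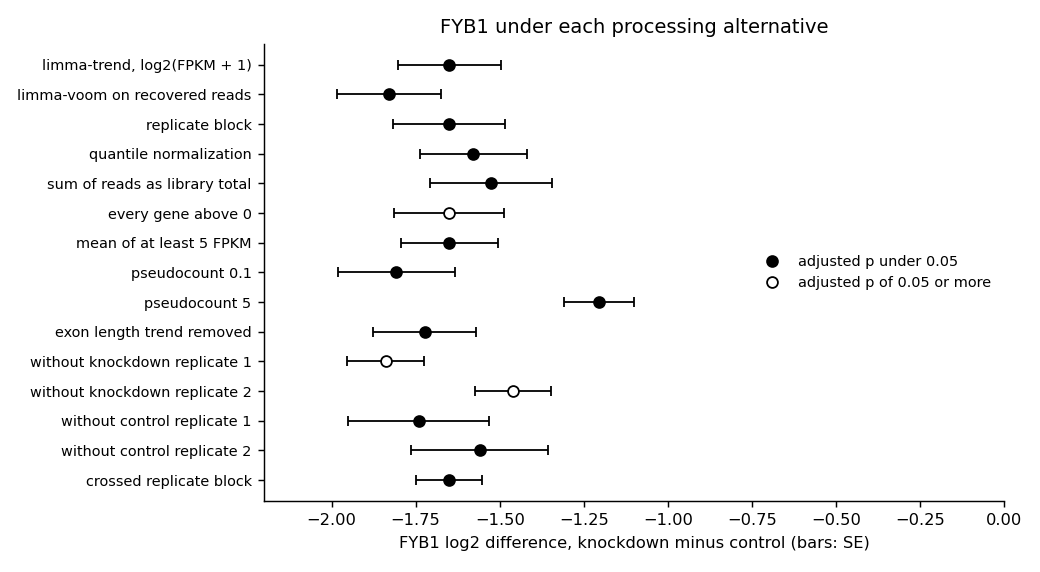
FYB1 log2 difference, knockdown minus control (horizontal axis), with its SE under limma-trend and each of 14 alternatives (filled, adjusted p under 0.05; open, 0.05 or more). The values lie between -1.84 and -1.20, and 11 of the 14 alternatives keep the call.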

How the data were processed

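The deposited table gives 1 value per gene and library, with no unit in its header. HISAT2 2.0.5 and the build hg38 are named in the authors' pipeline, per the submitters' processing notes. The sources used here give no counting program, annotation, use of strand or read length. The deposited values were taken as FPKM as the authors scaled them, because multiplying by merged exon length (GENCODE 29) turned 100% of values in each library into whole multiples of a single step (tolerance 0.001). That step returned whole reads and the totals the authors had divided by, which are proportional to median-of-ratios factors rather than to the sum of reads.

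Differences are knockdown minus control. Group means were compared by limma-trend (limma 3.58.1, R 4.3.3) on log2(FPKM + 1) for the 13172 genes averaging 1 FPKM or more. Benjamini-Hochberg adjustment covered all these genes, and an adjusted p under 0.05 was called. Limma-voom on recovered reads with the authors' totals was the second test. Both were tested on simulated counts. Alternatives were a replicate block, quantile normalization, summed reads as total, other filters and pseudocounts, removal of a smooth trend on exon length (lowess, span 0.3) and each library left out. A crossed block and levels per main transcript were added after the data were seen. Some items are not reported here.

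The members and lists were chosen with earlier results of these data known. Named beside the members are up to 8 genes of each list (those called by either test, then the largest differences to 5 genes, then the highest means) and the 5 coding genes, among those averaging 5 FPKM or more, whose centred log2(FPKM + 1) values lay nearest to those of FYB1.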

Additional observations from a re-analysis of the deposited data

How the results depend on the processing

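FYB1 stayed lower under all 14 alternatives, from -1.84 to -1.20, and was called under 11. Without 1 library each it ran from -1.84 to -1.46, and with every gene above 0 tested it was -1.65 (adjusted p = 0.264), where 0 members were called; the count of members called was 0 to 1 without 1 library each. The count of all genes called, 27, depended on the setting. It was 1019 by limma-voom, 45 with quantile normalization, 76 with the sum of reads as total, 0 with every gene above 0, 181 for genes averaging 5 FPKM or more, and 0 to 406 without 1 library each (0 without knockdown library 1 or 2, 228 without control 1 and 406 without control 2). Limma-voom called 1 pathway gene and 1 relative. With the replicate block 781 genes were called and with a crossed block 1910, including 1 pathway gene, PTPN22. Replicate differences of the groups correlated at -0.21 over genes, and nothing in the labels pairs the numbers. The block changed no call of a member. The cause of these changes was not tested.

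Of the 14 alternatives, 4 leave the log2 differences as they are by construction. Under the other 10, 65 of 80 partner values kept their sign, and none was called, where 3 alternatives called no gene at all. The sum of reads as total moved the median of all genes tested from -0.03 to 0.08, and with it GRAP2 to 0.11, NCK1 to 0.056, EVL to 0.016, DBNL to 0.095, LCK to 0.062 and SRC to 0.021. Quantile normalization gave GRAP2 0.090, NCK1 0.00098, EVL 0.078, DBNL 0.016, LCK 0.34, ZAP70 0.14 and DBN1 0.018. The exon length correction gave NCK1 0.041, FYN -0.0098 and LCK 0.057. Without 1 library each the ranges were -0.13 to 0.24 for SKAP1, -0.086 to 0.049 for GRAP2, -0.064 to 0.11 for FYN, -0.078 to 0.019 for DBNL, -0.25 to 0.098 for LCK, -0.014 to 0.019 for KHDRBS1, -0.070 to 0.093 for HCLS1, -0.13 to 0.18 for NCK2 and -0.24 to 0.042 for SRC, with a turn of sign in each. Without a turn, VASP ran from -0.32 to -0.032, LCP2 from 0.061 to 0.24, CBL from 0.15 to 0.41, DBN1 from -0.40 to -0.16 and ZAP70 from -0.31 to -0.016, the smaller size of each without knockdown library 1 and the larger without knockdown library 2. NCK1 ran from -0.11 to -0.034, with both ends set by a control left out. In these fits a lone library is assumed to vary like the other group. The partners rest on 709 to 5934 reads per library, a counting error of 3.76% to 1.30%, which covers counting only.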
